A study of Mus musculus with 11 samples.

Results

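The comparison described here sets one library of non-infarcted cortex from levetiracetam-treated mice, taken 7 d after a photothrombotic stroke, against one library of the same side and time without the drug. Photothrombosis clots the vessels of a small cortical area by shining light on it after a light-sensitive dye has been injected. The genes described are the 12540 of 22377 in the table whose mean over this pair of libraries was at least 5 CPM, the tags of a gene scaled to the tags of its library. They were chosen by mean level and not by ratio. A gene low in 1 library can still pass through its level in the other, as Ngp did with 0.904 CPM in the levetiracetam library and 15.8 CPM in the untreated one. Choice and ratio are therefore not independent for genes near the limit. Casp1 lay just inside the limit with 3.77 CPM in the levetiracetam library and 6.23 CPM in the untreated one, and Cdc42ep5 just outside it with 5.05 and 4.95 CPM in the same order.

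All libraries are whole cerebral cortex of male C57BL/6N mice, 1 library a group. The stroke was made in the left parietal region with rose bengal at 35 mg/kg and 565 nm light on a circle of 3.5 mm for 30 minutes, so the side compared here is the one that was not irradiated. Both libraries of the pair carry the stroke, and levetiracetam in the drinking water at 5 mg/mL is the labelled difference between them. With 1 library a side, the drug cannot be told apart from other differences between the mice, dissections or library preparations. The design text describes treatment from 1 month after the stroke for 2 weeks, which cannot hold for libraries labelled as treated at 7 d, so the length of treatment behind the levetiracetam library is not known. The other libraries set beside the pair are the infarcted side at 7 d with and without the drug, the non-infarcted side at 1 m with and without the drug and at 2 m after 2 weeks of withdrawal, the infarcted side at 1 m, and a naive cortex. Ages of 8 to 10 and of 65 to 85 weeks are given for the study and not for each library. The number of mice in a library, and whether both sides come from the same mice, are not stated.

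Levetiracetam is an anti-seizure drug that binds SV2A, a glycoprotein of synaptic vesicles, and lowers transmitter release during strong firing. The cortex opposite a stroke is spared by the clot, yet it is linked to the injured side through callosal axons and circulating blood, and it is often used as the internal control. Neutrophils are the first leukocytes to enter tissue after ischaemia, and their transcripts in whole tissue also come from blood left in the vessels.

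The libraries were made by cap-trapping, in which a tag is counted at the 5′ end of a capped transcript, and random primers were used, so transcripts without a poly(A) tail are counted too. The levetiracetam library holds 18810094 tags and the untreated one 17986333, within the range of 12928291 to 21000367 over all 11 libraries. Of these tags, 96.9% and 96.6% in the same order lie in the listed genes. Every member has at least 183 tags in the pair together. With 1 library a group there is no spread between replicates, no test and no p-value: each ratio of CPM is given with an exact 95% interval (Clopper-Pearson) on its tags, which covers counting error only. A gene is called when its ratio reaches 1.5-fold and that interval lies outside 1. Levels set beside each other are CPM, and a log2 ratio is levetiracetam over untreated, so a negative one means less in the levetiracetam library.

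The genes that differed most between the libraries are 4 genes of neutrophil granules and cytosol, and the gene of the clock repressor Ciart is among the leading genes in the other direction. Their promoters are printed here from RefSeq (GRCm38.p6, from 250 bases before to 50 after the start, 5′ to 3′ on the strand of the gene) because these genes lead the results. In the neutrophil genes the capitals mark TTGCNNAA, a form of the C/EBP half-site pair, and the core promoter motif TATAAA. In Ciart they mark CACGTG, the E-box that CLOCK and BMAL1 can bind. All were searched on both strands, and no marked match overlaps another.
Ngp, chr9:110419558-110419857, plus strand: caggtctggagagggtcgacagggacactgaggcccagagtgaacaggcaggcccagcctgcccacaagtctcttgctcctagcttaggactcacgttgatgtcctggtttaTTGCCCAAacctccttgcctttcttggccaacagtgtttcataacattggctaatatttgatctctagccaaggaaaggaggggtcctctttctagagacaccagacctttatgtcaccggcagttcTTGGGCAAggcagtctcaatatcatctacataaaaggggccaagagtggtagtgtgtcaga
Camp, chr9:109849407-109849706, minus strand: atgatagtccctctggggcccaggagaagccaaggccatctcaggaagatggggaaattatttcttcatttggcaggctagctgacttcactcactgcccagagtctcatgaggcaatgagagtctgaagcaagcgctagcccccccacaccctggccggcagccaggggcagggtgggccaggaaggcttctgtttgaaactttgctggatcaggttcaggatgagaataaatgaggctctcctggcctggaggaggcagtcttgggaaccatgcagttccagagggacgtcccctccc
S100a8, chr3:90668821-90669120, plus strand: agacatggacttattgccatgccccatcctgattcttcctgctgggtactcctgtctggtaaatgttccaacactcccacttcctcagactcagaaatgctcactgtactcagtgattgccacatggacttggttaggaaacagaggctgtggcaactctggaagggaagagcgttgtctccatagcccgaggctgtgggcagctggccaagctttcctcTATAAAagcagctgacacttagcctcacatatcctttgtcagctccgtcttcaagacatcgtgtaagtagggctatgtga
S100a9, chr3:90695672-90695971, minus strand: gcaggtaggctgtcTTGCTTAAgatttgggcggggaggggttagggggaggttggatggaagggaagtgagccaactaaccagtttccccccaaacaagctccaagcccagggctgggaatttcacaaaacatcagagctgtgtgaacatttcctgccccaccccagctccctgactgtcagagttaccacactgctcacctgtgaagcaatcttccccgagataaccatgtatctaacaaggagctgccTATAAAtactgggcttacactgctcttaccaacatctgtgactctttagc
Ciart, chr3:95882179-95882478, minus strand: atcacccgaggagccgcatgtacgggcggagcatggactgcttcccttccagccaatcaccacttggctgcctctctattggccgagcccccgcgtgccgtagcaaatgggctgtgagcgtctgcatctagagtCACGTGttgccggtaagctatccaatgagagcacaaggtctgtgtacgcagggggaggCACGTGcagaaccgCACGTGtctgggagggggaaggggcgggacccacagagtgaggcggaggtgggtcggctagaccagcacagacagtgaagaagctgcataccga
TTGCNNAA was found 2 times in the Ngp window and 1 time in that of S100a9. TATAAA was found 1 time each in S100a8, at −30 from the start, and in S100a9, at 0, which is the start itself. CACGTG was found 3 times in Ciart, while the Camp window holds neither of the motifs searched there. For Ngp, Camp and S100a8 the RefSeq start used here differs from the end of the gene position given below. Over all 32851 promoters of the table, 10.8% hold TTGCNNAA, 13.6% TATAAA and 7.15% CACGTG. The set of genes called lower, with 68 promoters for 58 of its genes, had TATAAA in 22.1% and TTGCNNAA in 17.6% of them, and a median GC content of 54.7%. Over the 12355 promoters of all members these shares were 6.98% and 8.00%, and the median GC content was 61.3%. The 43 promoters of genes called higher held TTGCNNAA in 18.6%, a share close to that of the genes called lower, and TATAAA in 13.95%. They cover 25 of the 34 genes and held CACGTG in 6.98% (3 promoters), against 9.90% among all members. TGACGTCA, the cyclic AMP response element, was in none of these 43 nor of the 68 promoters of genes called lower, against 3.07% among all members. Sets this small would hold few matches at that share, so its absence cannot be read as a lack. A match is a string of letters and not evidence of binding.

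Most genes had nearly the same level in both libraries. The median log2 ratio over the 12540 members was −0.01, the quartiles were −0.14 and 0.13. Called genes numbered 34 higher (0.271% of members) and 89 lower (0.71%) with levetiracetam, of which 1 and 11 passed 2-fold. The counting interval excluded 1 on either side for far more members, 2599 above and 2628 below, so at this depth small ratios stand out from counting error alone. Called genes were weakly transcribed, with a median of 11.8 CPM for those higher and 9.70 CPM for those lower, against 33.1 CPM over all members. Protein-coding genes made up 27 of the 34 and 79 of the 89. The number of calls in each direction depends on the scaling: with median-of-ratios factors, which place the centre of the log2 ratios at −0.02, there were 45 higher and 69 lower, so the share of higher genes among all called was 39.5% in place of 27.6%.

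**Figure D1:**
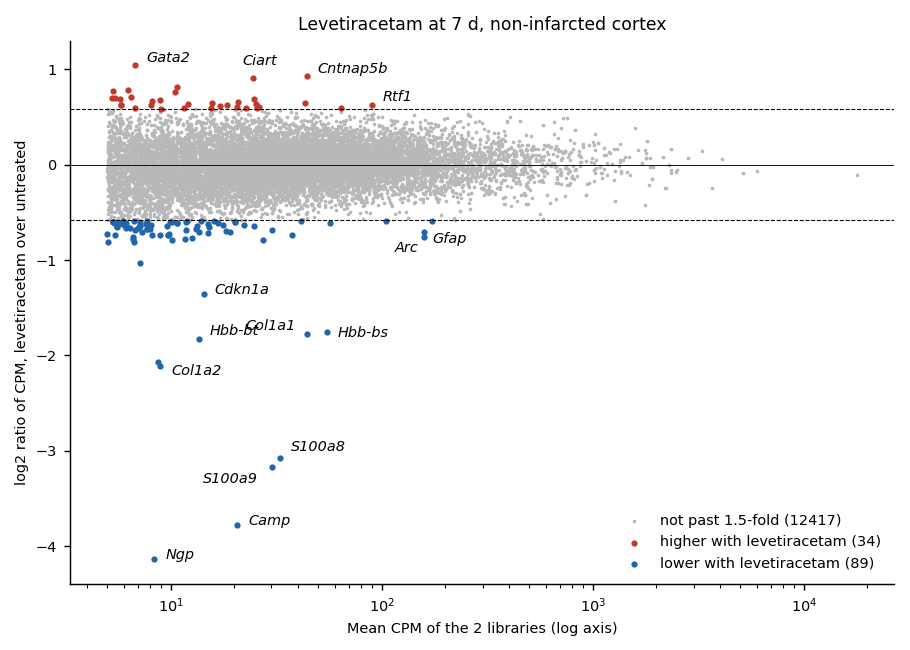
Each point is a member, with its mean CPM over the pair on a log axis and its log2 ratio of levetiracetam over untreated, and dashed lines mark 1.5-fold. Below the cloud lie Ngp at −4.13, Camp at −3.77, S100a9 at −3.17 and S100a8 at −3.08, while no gene called higher exceeds the 1.04 of Gata2.

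Neutrophil genes were lower in the levetiracetam library by more than any others. Ngp (chr9:110419747-110423012, plus strand), which encodes neutrophilic granule protein, had 0.904 CPM in the levetiracetam library (17 tags) against 15.8 CPM in the untreated one (285 tags), a ratio of 0.0570 (interval 0.0328 to 0.0930). In the other libraries without an infarct it had 0.541 CPM in naive cortex, 0.0952 and 0.872 CPM at 1 m with and without the drug and 1.03 CPM at 2 m. The untreated 7 d library is thus the one that stands above the others, and the levetiracetam library lies among them.

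Camp (chr9:109847379-109849617, minus strand), the cathelicidin of secondary granules, also had less with the drug, with 2.82 CPM in the levetiracetam library against 38.5 CPM in the untreated one (ratio 0.0731, interval 0.0542 to 0.0968). Its levels elsewhere on this side were 1.39 CPM in naive, 0.667 and 2.54 CPM at 1 m with and without the drug and 0.971 CPM at 2 m. For Camp the levetiracetam library thus lies just above these. S100a8 (chr3:90668978-90670035, plus strand) and S100a9 (chr3:90692632-90695721, minus strand) are neighbours that encode the partners of calprotectin, the most abundant cytosolic protein of neutrophils. S100a8 had 6.96 CPM with levetiracetam against 58.8 CPM without it (ratio 0.119, interval 0.0981 to 0.142), and S100a9 6.01 CPM against 54.0 CPM (ratio 0.111, interval 0.0907 to 0.135). Naive cortex had 5.65 CPM of S100a8 and 3.17 CPM of S100a9, and no library of this side at 1 m or 2 m exceeded 7.48 CPM of S100a8 or 4.72 CPM of S100a9.

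Of the 5 neutrophil markers in the table, 4 had their highest level of all 11 libraries in the untreated 7 d library, and all 5 had less in the levetiracetam library. Only S100a8 and S100a9 reach 5 CPM. Elane, the neutrophil elastase, had 0.0532 CPM against 0.612 CPM, Retnlg 0.797 CPM against 6.39 CPM, and Csf3r, the receptor for granulocyte colony-stimulating factor, 3.77 CPM against 5.84 CPM. A longer list of 16 neutrophil granule genes was added after the leading genes had been seen, so it shows how far the pattern reaches and is not a separate result. All 16 had less in the levetiracetam library, and the intervals of 12 of the 13 with at least 20 tags lay below 1. Ltf, which encodes lactoferrin, had 0.106 CPM against 2.22 CPM, and Wfdc21 0.372 CPM against 5.17 CPM. Mmp9 and Chil3 had 0 tags of 18810094 in the levetiracetam library, which allows up to 0.159 CPM, against 1.17 and 1.45 CPM in the untreated one.

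Summed over the 16 genes, the list had 29.3 CPM in the levetiracetam library and 202.4 CPM in the untreated one, and 15.2 to 25.8 CPM in the other 4 libraries of naive or non-infarcted cortex. On the infarcted side at 7 d the sums were 47.2 CPM with levetiracetam and 103.0 CPM without it. Whole cortex does not tell fewer cells of a type from less RNA in each cell, so these sums describe the tissue and not the number of neutrophils.

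Haemoglobin and collagen genes followed the neutrophil genes in size. Hbb-bs, an adult beta-globin, had 25.2 CPM in the levetiracetam library against 84.8 CPM in the untreated one (ratio 0.297, interval 0.267 to 0.329), and Hbb-bt 5.95 against 21.1 CPM (ratio 0.282, interval 0.226 to 0.349). Here the levetiracetam library and the 2 m library are the low ones: Hbb-bs had 131.9 CPM in naive cortex, 79.7 and 82.7 CPM at 1 m with and without the drug, and 14.02 CPM at 2 m. The erythroid sum of 4 genes was 31.4 CPM with levetiracetam against 106.6 CPM without it, and ran from 15.7 to 157.6 CPM in the 4 other libraries of naive or non-infarcted cortex. The naive library therefore had the highest erythroid sum of these together with a neutrophil granule sum of 18.9 CPM. How much blood was left in each cortex is not stated, and its part in these results was not tested.

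Col1a1 (chr11:94936224-94953042, plus strand), the main chain of type I collagen, had 20.0 CPM with levetiracetam against 68.3 CPM without it (ratio 0.293, interval 0.260 to 0.329), and 25.4 CPM in naive, 16.0 and 18.0 CPM at 1 m with and without the drug and 37.8 CPM at 2 m. Col1a2, its partner chain, had 3.35 against 14.5 CPM (ratio 0.232, interval 0.173 to 0.306), and its tags are shared with the overlapping Gm43921, so the pair is one signal. Both collagens stood higher in the untreated library than in the other 5 of this side and naive. The other 8 members of the matrix list had log2 ratios between −0.43 in Col4a1 and 0.07 in Lama2, and none was called, although Col3a1, below 5 CPM, had 2.29 against 7.56 CPM. Bglap, the osteocalcin of bone-forming cells, had 0.638 against 4.06 CPM, whereas Runx2 and Alpl of the same lineage had log2 ratios of 0.18 and −0.18. A list of 10 bone-forming genes was made after the collagens had been seen and includes Col1a1 and Col1a2; its other 8 genes summed to 24.5 CPM with levetiracetam and 29.97 CPM without it, and 6 of them had less with it. Meningeal fibroblast genes, which also make collagen, had a median log2 ratio of −0.13 over 8 members with none called.

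**Figure D2:**
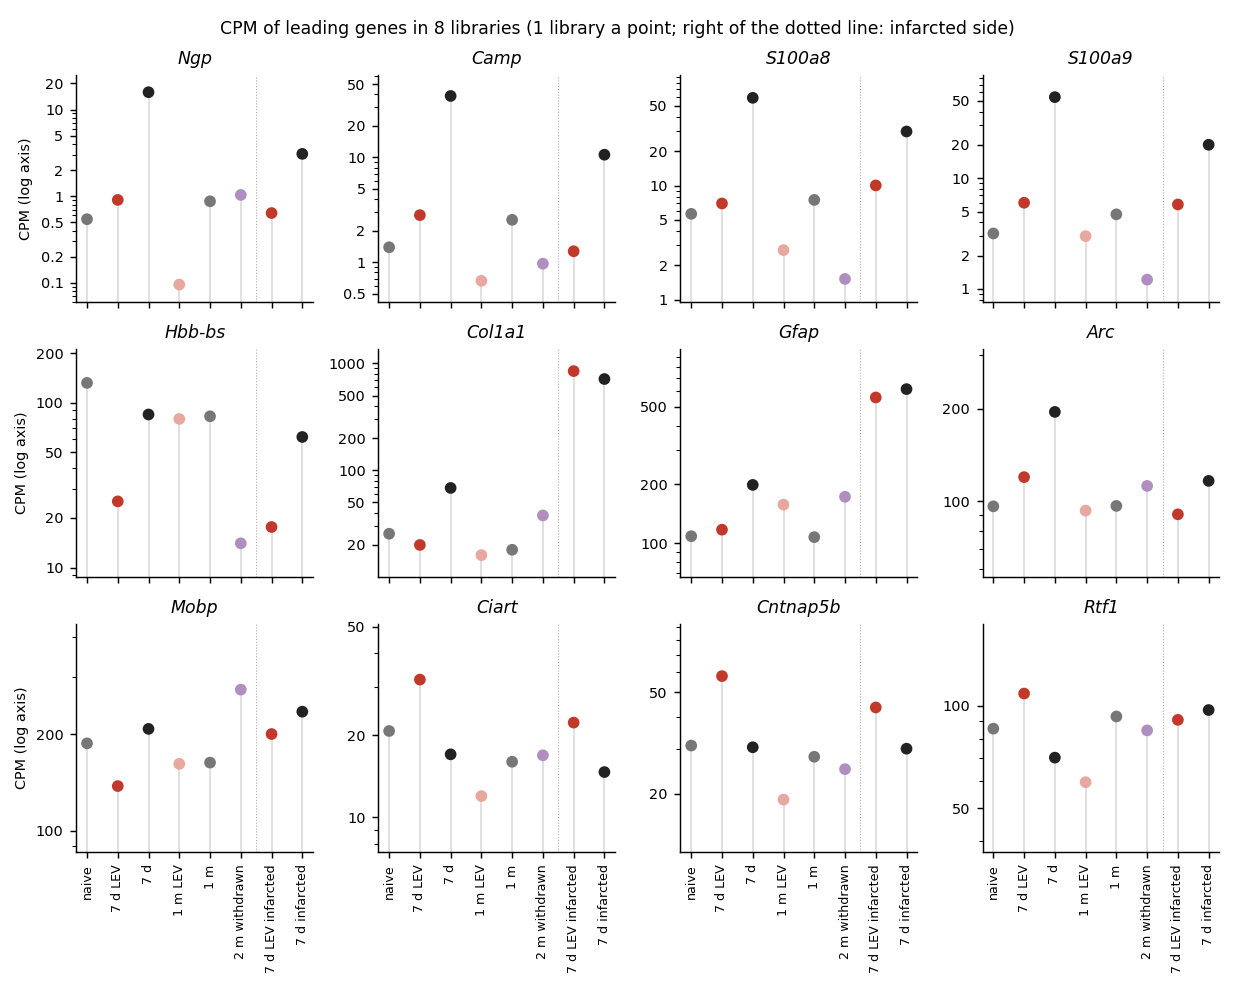
CPM on log axes in 8 libraries, 1 point a library, with naive and the non-infarcted side left of the dotted line and the infarcted side at 7 d right of it. The neutrophil genes peak in the untreated 7 d library, Hbb-bs is low in both 7 d levetiracetam libraries, at 25.2 and 17.6 CPM, and Cntnap5b is highest in those libraries, at 57.9 and 43.6 CPM.

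Among the other leading genes called lower, Cdkn1a, which encodes the cell cycle inhibitor p21 and responds to p53 and to glucocorticoids, had 8.03 CPM with levetiracetam against 20.6 CPM without it (ratio 0.390, interval 0.321 to 0.473). It had 23.4 CPM in naive, 12.1 and 10.0 CPM at 1 m with and without the drug and 22.4 CPM at 2 m, so the levetiracetam library lies below these 4 and the untreated one within their range. No other of the 12 glucocorticoid response members was called, and their median log2 ratio was 0.13, with Fkbp5 at 0.25 and Sgk1 at 0.19. Tm4sf1, a tetraspanin-like protein of endothelium, had 4.68 against 9.56 CPM, and the 4 other libraries of naive or non-infarcted cortex lay between 4.52 and 5.80 CPM, near the levetiracetam library.

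Astrocyte genes had log2 ratios mostly below 0, with 1 called lower, beside 0.71% of all members. Gfap, the intermediate filament that reactive astrocytes build up, had 117.2 CPM in the levetiracetam library against 198.8 CPM in the untreated one (ratio 0.590, interval 0.559 to 0.622). Naive cortex had 108.5 CPM, the 1 m libraries 157.5 CPM with the drug and 107.3 CPM without it, and the 2 m library 172.8 CPM. The untreated 7 d library is the highest of these 6 and the levetiracetam library is close to naive. In the reactive astrocyte list 4 of 14 genes reached 5 CPM, and beside Gfap these were Vim with 19.1 against 27.2 CPM, Serpina3n with 6.22 against 5.89 CPM and S1pr3 with 8.13 against 7.28 CPM. The homeostatic astrocyte list had a median log2 ratio of −0.18, with 11 of 12 members below 0, 10 intervals below 1 and none called. Its lowest members were the water channel Aqp4 with 21.6 against 28.3 CPM and the glutamine synthetase gene Glul with 68.5 against 88.2 CPM, while the glutamate transporter gene Slc1a2 had 1352 against 1331 CPM.

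All complement members had log2 ratios below 0, and 1 of 7 was called lower, beside 0.71% of all members. The median log2 ratio of the 7 members was −0.38, and C4b, which links the classical and lectin pathways to C3 cleavage, was called lower with 8.61 CPM against 14.7 CPM (ratio 0.585, interval 0.478 to 0.713). The C1q chains C1qa, C1qb and C1qc, made by microglia, had log2 ratios of −0.32, −0.24 and −0.52. Naive cortex had 14.9 CPM of C4b, close to the untreated library, so for this gene it is the levetiracetam library that lies below the other 5.

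Microglial genes lay on both sides of 0. The homeostatic microglia list had a median log2 ratio of −0.10 over 11 members, from −0.49 in Olfml3 to 0.28 in Selplg, and Aif1 had 41.0 against 35.5 CPM. The disease-associated list had a median of −0.16, with 10 of 11 members below 0 and none called, among them Cd9 at −0.36 and Trem2 at −0.35. Single myeloid genes were called lower: the Fc receptor gene Fcgr3 with 23.2 against 37.4 CPM, the lysozyme gene Lyz2 with 13.98 against 22.6 CPM and Cd74, the invariant chain of MHC class II, with 4.94 against 7.84 CPM. On the infarcted side Lyz2 had 650.3 CPM with levetiracetam and 754.6 CPM without it, so the levels here are a small part of those in the injured tissue. Of the class I genes, H2-K1 and H2-D1 had log2 ratios of 0.05 and 0.06 and B2m −0.37. Interferon response genes had a median of −0.21 over 8 members with none called, and of 14 cytokines and chemokines only 4 reached 5 CPM, with Csf1 the lowest at −0.51.

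Myelin genes had log2 ratios below 0 through almost the whole list, and 2 of 14 were called lower, beside 0.71% of all members. Their median log2 ratio was −0.42 over 14 members, 13 below 0, and 11 intervals lay below 1. Aspa, which breaks down N-acetylaspartate in oligodendrocytes, had 11.4 CPM with levetiracetam against 18.7 CPM without it, and Mobp, a basic protein of compact myelin, 137.8 against 207.5 CPM. Mobp had 187.1 CPM in naive, 161.6 and 163.05 CPM at 1 m with and without the drug and 274.9 CPM at 2 m, so the levetiracetam library is the lowest of the 6 and the untreated one lies within the range of the others. Mbp, the myelin basic protein gene, had 1515 against 2032 CPM, short of 1.5-fold. The sum over the list was 2635 CPM with levetiracetam and 3529 CPM without it, and 2638 to 4098 CPM in the 4 other libraries of naive or non-infarcted cortex. Oligodendrocyte precursor genes had a median of −0.11 over 7 members, and Olig1 and Olig2, transcription factors of the whole lineage, 0.13 and 0.11. A list of 9 mature oligodendrocyte genes was made after these values were seen, so its calls are not a separate result. Of the 9, 5 were called lower, beside 0.71% of all members. Among them were Galnt6 with 5.21 against 8.40 CPM and Gjc3 with 16.0 against 24.2 CPM.

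Endothelial genes had a median log2 ratio of −0.24 over 10 members. Cldn5, the tight junction protein that seals the blood-brain barrier, had 28.3 CPM with levetiracetam against 47.0 CPM without it (ratio 0.601, interval 0.538 to 0.671), and Pecam1 8.08 against 12.3 CPM. Naive cortex had 33.9 CPM of Cldn5 and the 1 m and 2 m libraries 48.0 to 56.0 CPM, so again the levetiracetam library is the lowest. The glucose transporter gene Slc2a1 and Vwf had log2 ratios of 0.18 and 0.45, so the list did not shift evenly. Among pericyte and smooth muscle genes Tagln was called lower with 6.17 against 9.62 CPM, and the median of the 8 members was −0.07.

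Activity-regulated genes were split. Arc (chr15:74669083-74672570, minus strand), whose transcript is carried to active synapses, had 119.9 CPM with levetiracetam against 195.6 CPM without it (ratio 0.613, interval 0.581 to 0.646). The untreated library was the highest of all 11: naive had 96.3 CPM, the 1 m libraries 93.2 and 96.6 CPM with and without the drug and the 2 m library 112.2 CPM, so the levetiracetam library also exceeded these 4. The other 19 immediate early genes were not called, and their list had a median of −0.13. Fosl2 had 35.6 against 52.7 CPM and Dusp1 45.5 against 61.8 CPM. Fos had 20.9 against 20.7 CPM, Egr1 426.8 against 422.5 CPM, Junb 87.8 against 85.2 CPM and Npas4 11.9 against 14.2 CPM. Over the whole list 13 of 20 members were below 0, with 6 intervals below 1 and 2 above. Fos in naive cortex was 7.43 CPM.

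Among 15 later activity-dependent genes 3 were called lower, beside 0.71% of all members, and the median log2 ratio was −0.22. These were Nptx2, a pentraxin that gathers AMPA receptors, with 19.2 against 30.1 CPM, Ccn1, a matricellular protein, with 5.64 against 8.73 CPM and Inhba, an activin subunit, with 4.25 against 6.45 CPM. Bdnf, the neurotrophin, had 19.9 against 27.0 CPM (ratio 0.738, interval 0.643 to 0.846) and was not called. Per1 and Sik1, which answer to cyclic AMP, had log2 ratios of 0.15 and 0.22.

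Among genes of the projection neurons of the striatum, which lies beneath the cortex, 3 of 11 were called lower, beside 0.71% of all members. Tac1, the precursor of substance P, had 14.5 CPM with levetiracetam against 23.6 CPM without it, Penk, that of the enkephalins, 83.8 against 125.9 CPM, and Adora2a, an adenosine receptor, 8.51 against 13.01 CPM. The median log2 ratio of the 11 striatum members was −0.35, yet Drd2 had 8.29 against 8.28 CPM and Syndig1l 12.8 against 10.5 CPM. On the infarcted side at 7 d the same list had a median of 0.60 with levetiracetam over untreated, the opposite sign, and at 1 m on the non-infarcted side it had −0.43, the same sign. The sum of the list over all 11 libraries ran from 644 CPM on the infarcted side at 7 d without the drug to 1197 CPM on the infarcted side at 2 m, and was 746.2 and 879.4 CPM in the levetiracetam and the untreated library compared here. How much striatum each sample carried was not measured, and its part in the values of Tac1, Penk and Adora2a was not tested. Tac1 and Penk are also 2 of the 15 neuropeptide members, whose median was −0.32. Crh, the corticotropin-releasing hormone, had 7.55 against 10.7 CPM there, and Npy 217.3 against 203.7 CPM.

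The target of the drug had nearly the same level in both libraries. Sv2a had 157.8 CPM with levetiracetam against 147.8 CPM without it (ratio 1.07, interval 1.01 to 1.13), Sv2b 382.5 against 351.9 CPM and Sv2c 24.1 against 23.9 CPM. Naive cortex had 136.7 CPM of Sv2a, and the 1 m and 2 m libraries lay between 129 and 142.4 CPM. The 20 genes of SV2 and vesicle release had a median log2 ratio of 0.13 with none called. Among its members were Syn3 at 0.33 and the vesicle calcium sensor Syt1 at 0.25. The lowest were Vamp1 at −0.18 and Syn1 at −0.11.

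Lists of excitatory neurons, of layers and of glutamate and GABA-A receptors had medians slightly above 0 and held no called gene. Ionotropic glutamate receptors had a median of 0.16, 13 of 15 members above 0, from −0.21 in Grik1 to 0.46 in Grik3. Excitatory neuron genes had a median of 0.17, with the vesicular glutamate transporter gene Slc17a7 at 797 against 609.5 CPM. GABA-A receptor subunits had a median of 0.03 over 12 members and Gabra5 had 56.4 against 44.9 CPM. Upper and deep layer markers had medians of 0.09 over 9 and 0.04 over 11 members.

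Sodium, calcium and HCN channels had a median of 0.08, from −0.46 in the T-type channel Cacna1h to 0.38 in the N-type channel Cacna1b, which had 52.7 against 40.6 CPM. Potassium channels of the list had a median of 0.12, with the inward rectifier Kcnj4 highest at 0.46. Slc12a5, which encodes the chloride extruder KCC2 that sets the sign of GABA responses in mature neurons, had 474.6 CPM with levetiracetam against 335.3 CPM without it, a log2 ratio of 0.50 (ratio 1.42, interval 1.37 to 1.46). This is below the 1.5-fold limit, and the naive, 1 m and 2 m libraries ranged from 304.9 to 459.1 CPM. Slc12a2, the chloride importer NKCC1, had 22.7 against 22.6 CPM.

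Inhibitory neuron genes had a median of −0.06 with 12 of 16 below 0. Beside Tac1, the lowest was Pvalb, the parvalbumin of fast-spiking cells, with 108.2 against 159.1 CPM, a log2 ratio of −0.56 just short of the limit. Gad1 had 204.8 against 195.0 CPM and Sst 564.2 against 581.8 CPM, and Dlx1 was the highest at 0.51.

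**Figure D3:**
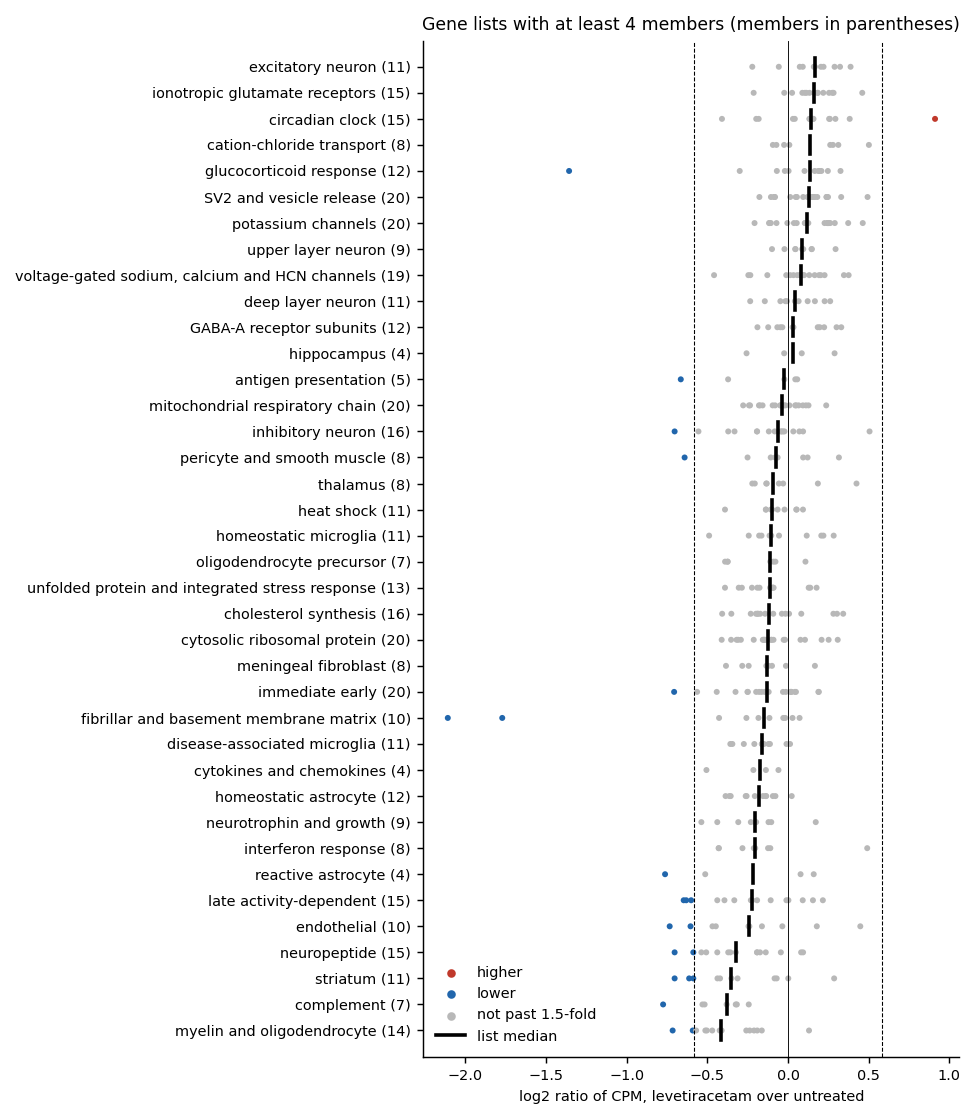
Log2 ratios of members, 1 point a gene, in 38 lists that have at least 4 members, ordered by list median (black bar), with dashed lines at 1.5-fold. Excitatory neuron, layer, glutamate and GABA-A receptor and channel lists sit at medians from 0.03 to 0.17. Other neuronal lists lie below 0: inhibitory neuron (−0.06), immediate early (−0.13), late activity-dependent (−0.22) and neuropeptide (−0.32). Myelin (−0.42), complement (−0.38) and striatum (−0.35) are lowest.

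Genes called higher with levetiracetam form no list, and 1 of the 34, Ciart, belongs to one of the 43 gene lists used here, against 24 of the 89 called lower. Of the 438 list members, 0.228% were called higher and 5.48% lower, beside 0.271% and 0.71% of all members. The lists were chosen with earlier results of these data known, so these shares describe the lists and are not a separate result. Cntnap5b (chr1:99772765-100485942, plus strand), a neurexin-family adhesion protein of neurons, had 57.9 CPM with levetiracetam against 30.5 CPM without it (ratio 1.90, interval 1.71 to 2.11). It had 30.9 CPM in naive, 19.0 and 27.96 CPM at 1 m with and without the drug and 25.01 CPM at 2 m, so the levetiracetam library stands alone above the other 5. Gata2, a zinc finger transcription factor, is the only gene past 2-fold, with 9.14 against 4.45 CPM (ratio 2.06, interval 1.57 to 2.72), but naive cortex had 9.51 CPM and the 1 m library without the drug 8.42 CPM.

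Ciart, which encodes a repressor of CLOCK and BMAL1, had 32 CPM with levetiracetam against 17.01 CPM without it (ratio 1.88, interval 1.64 to 2.17). The levetiracetam library was the highest of all 11, with 20.7 CPM in naive, 11.95 and 15.98 CPM at 1 m with and without the drug and 16.9 CPM at 2 m. The 15 clock members had a median log2 ratio of 0.15, and 12 were above 0. Bhlhe41 had 63.1 against 48.4 CPM, Nr1d1 102.2 against 85.4 CPM and Per2 41.3 against 37.6 CPM, while Arntl, which encodes BMAL1 and peaks in the opposite phase, had 34.2 against 45.5 CPM. The hour at which cortex was taken is not stated, so the phase of the clock in these libraries is not known and its part in the level of Ciart was not tested.

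The remaining leading genes called higher have varied roles. Rtf1, a subunit of the PAF complex that travels with RNA polymerase II, had 108.6 against 70.4 CPM (ratio 1.54, interval 1.44 to 1.66). Crtc2, the cyclic AMP-regulated coactivator of CREB, had 30.8 against 19.1 CPM, Pias2, a SUMO ligase, 77.4 against 51.2 CPM, and Map3k7, which encodes the kinase TAK1, 30.9 against 20.5 CPM. Usf3, Irf2bp1, Zfp513 and Brpf3, all transcription factors or chromatin cofactors, had log2 ratios from 0.60 to 0.81. For Pias2, Synrg, Usf3 and Carmil1 the untreated 7 d library was below the other 5. The levetiracetam library lay within the range of the other 4 for Usf3 and Carmil1, while Pias2 had 77.5 to 93.4 CPM in those 4 and Synrg, with 52.9 against 33.7 CPM in the pair, 57.2 to 68.05 CPM. The potassium channel genes Kcnh2 and Kcnd1, outside the potassium channel list and chosen after their values were seen, were also called, with 13.9 against 9.23 CPM and 6.49 against 4.003 CPM.

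That order held for most genes called higher. In 26 of the 34 (76.5%) the untreated library lay below all of the naive, 1 m, 1 m levetiracetam and 2 m libraries, against 18.6% of all members. In 9 (26.5%) the levetiracetam library lay above those 4, against 24.3%. For genes called lower the balance was even: the untreated library was above the other 4 in 45 of 89 (50.6%, against 26.0% of members) and the levetiracetam library below them in 41 (46.1%, against 18.0%). Since a called gene has its libraries far apart, one of them tends to fall outside the others, and these shares are a description of which.

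General housekeeping, stress and growth lists had medians below 0 and held no called gene. Mitochondrial respiratory chain genes had a median of −0.04 and cytosolic ribosomal protein genes −0.12 over 20 members each. Among the ribosomal genes Rps3 was lowest at −0.41 and Rps27 highest at 0.31. Intervals lay below 1 for 10 respiratory chain and 13 ribosomal members, and above 1 for 5 of each list. Heat shock and unfolded protein lists had medians of −0.10 and −0.11, and both share Hspa5, the BiP chaperone of the endoplasmic reticulum, with 159.2 against 208.8 CPM. Cholesterol synthesis genes had a median of −0.12, with Idi1 at −0.41. Neurotrophin and growth genes had a median of −0.21 over 9 members with Igf1 at −0.54. Of these 9, 8 were below 0, with 7 intervals below 1 and 1 above. Of 14 cell cycle genes only Pcna reached 5 CPM, with 38.9 against 46.6 CPM.

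Markers of neighbouring tissue were low or even. Ttr, the transthyretin of choroid plexus, had 10.4 CPM with levetiracetam against 16.3 CPM without it and was called lower, while naive cortex had 349.7 CPM and the 1 m levetiracetam library 195.3 CPM. Kcne2 and Otx2, which mark choroid plexus epithelium, had 1 tag each in both libraries, and the sum of the 8 choroid plexus genes was 15.2 against 21.7 CPM. The hippocampus and thalamus lists had medians of 0.03 over 4 and −0.09 over 8 members.

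The drug was compared in other libraries of the series that share none with this pair. On the infarcted side at 7 d, 66 of the same 12540 genes were called higher (0.526%) and 34 lower (0.271%) with levetiracetam. At 1 m on the non-infarcted side 263 (2.1%) were called higher and 267 (2.13%) lower. Of the 89 genes called lower here, 65 (73.0%) lay below 0 in the 7 d infarcted pair, against 32.3% of all members, and 8 were called lower there. These 8 were Ngp, Camp, S100a8, S100a9, Hbb-bs, Hbb-bt, Ttr and Gpr3, an orphan receptor that raises cyclic AMP. S100a8 had 10.0 CPM in the infarcted side library with levetiracetam against 29.8 CPM without it, Camp 1.27 against 10.6 CPM and Hbb-bs 17.6 against 62.0 CPM. Col1a1 went the other way, with 847 against 714 CPM, and Arc had 90.7 against 116.6 CPM.

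Of the 34 genes called higher here, 22 (64.7%) lay above 0 in the 7 d infarcted pair, near the 67.7% of all members. Ciart, with 22.3 against 14.6 CPM, and Kcnd1, with a log2 ratio of 0.74, were called higher there, and Cntnap5b had 43.6 against 30.1 CPM, a log2 ratio of 0.54. Across the 12540 genes the log2 ratios of the 7 d pairs had a Pearson correlation of 0.285 and a Spearman correlation of 0.239. This is across genes, which are not independent, and both sides may share animals, dissection days and library preparation.

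At 1 m the log2 ratios of the non-infarcted pair were almost uncorrelated with those at 7 d. The correlation over genes was 0.030 by Pearson and 0.0015 by Spearman. Of the 89 genes 50 (56.2%) lay below 0, against 45.8% of members, 10 were called lower and 5 higher. The neutrophil genes are among the 10: Camp had 0.667 CPM with levetiracetam against 2.54 CPM without it and Ngp 0.0952 against 0.872 CPM, where 3 tags are 0.143 and 0.218 CPM. Of the 34 genes 14 (41.2%) lay above 0 and none was called higher. Ciart had 11.95 against 15.98 CPM and Cntnap5b 19.0 against 27.96 CPM at 1 m, both with the sign opposite to that at 7 d.

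**Figure D4:**
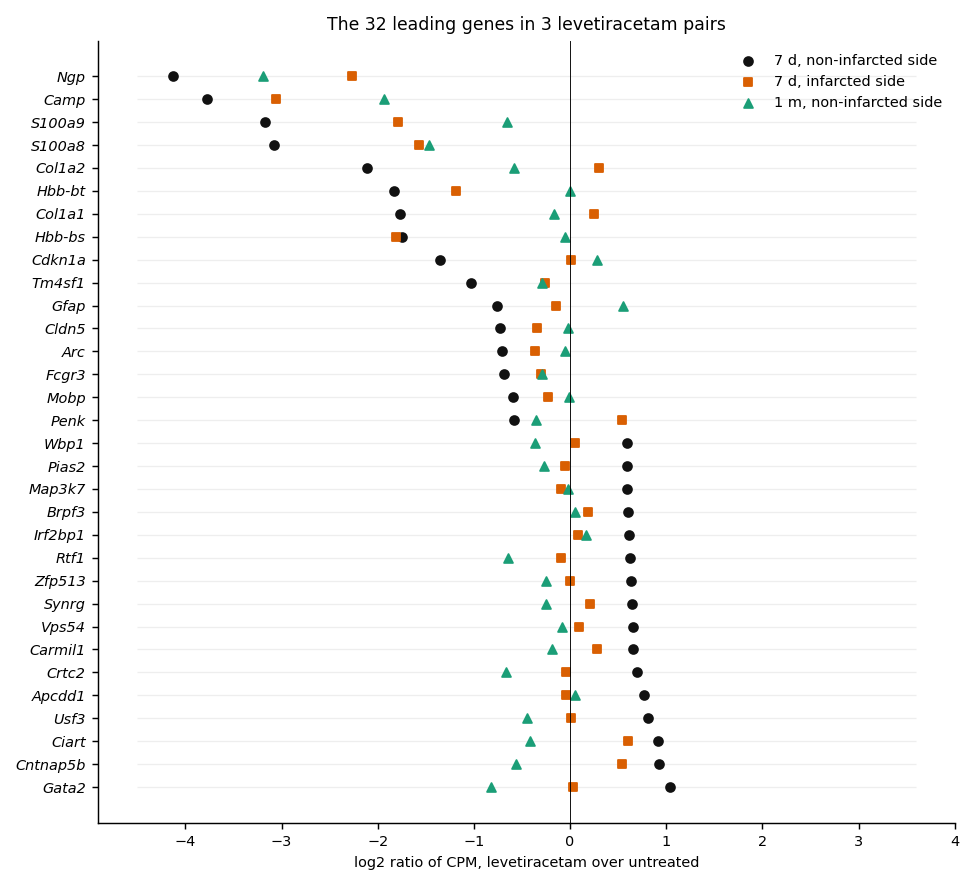
Log2 ratios of levetiracetam over untreated for the 32 leading genes in 3 pairs that share no library, ordered by the 7 d non-infarcted pair. Ngp, Camp, S100a8 and S100a9 are below 0 in all 3 pairs, the beta-globins in both 7 d pairs, and Gata2, Rtf1 and Crtc2, higher at 7 d, are at −0.82, −0.64 and −0.66 at 1 m.

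The genes were also set beside the infarct itself, using the 1 m libraries without the drug. In that contrast of infarcted over non-infarcted cortex 405 members (3.23%) were called higher and 313 (2.5%) lower. Among the 89 genes called lower with levetiracetam, 23 (25.8%) were higher on the infarcted side by the same call and none was lower. They include Gfap with 384.4 CPM on the infarcted side against 107.3 CPM on the other, Col1a1 with 146.8 against 18.0 CPM and Cd74 with 88.3 against 6.97 CPM. Among the 34 genes called higher, 8 (23.5%) were lower there and 1 was higher. Only the pair without the drug at 1 m enters this count, so it shares no library with the comparison at 7 d, but whether it rests on cell types that respond to injury was not tested.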

How the data were processed

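CPM values per gene were deposited by the authors for 11 cap-trapped libraries of whole cerebral cortex, 1 a group, per the labels' protocols. BWA 0.7.17, HISAT2 2.0.5, DESeq2 1.20.0 and the build GRCm38 are named in the submitters' processing notes, without their roles; the counting of tags is not given in the sources used here. Every CPM value is a whole multiple, within 0.01 tag, of what 1 tag is worth (100% of values), so tags and totals were recovered from the table. A count model could not be fitted to 1 library against 1, which leaves 0 residual degrees of freedom, so no test was made.

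Members have a mean of at least 5 CPM in the pair. The ratio of CPM carries an exact Clopper-Pearson 95% interval, checked on simulated data, and a gene is called at 1.5-fold with the interval outside 1. Genes within 5 kb whose tags differ by at most 5% in every library, with at least 20 tags, were treated as sharing tags, which holds for 775 members. Gene positions come from GENCODE M21, where 22335 of 22377 identifiers matched.

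Named genes are the 16 called higher and the 16 called lower whose interval bound lies farthest from 1, up to 4 members of each of 43 lists with the largest log2 ratio in size, and a panel of drug target, synaptic and glial genes; predicted genes and genes that share tags with a named one were only counted. Other list members, Kcnh2, Kcnd1 and the genes in the closing observations were chosen after their values were seen, and so were 3 added lists (neutrophil granule, bone-forming and mature oligodendrocyte genes). The genes and lists were chosen with earlier results of these data known. Alternatives were the minimum level, the scaling, a pseudocount, the fold and shared tags. Python 3.11.15, pandas 2.3.3, scipy 1.17.1 and, for TMM factors, edgeR 4.0.16 in R 4.3.3 were used. Results for a few listed genes are not reported here.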

Additional observations from a re-analysis of the deposited data

Results flagged for a closer look

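Of the 34 genes called higher and 89 called lower in the 7 d non-infarcted pair, 10 were called in the opposite direction in another levetiracetam pair. In the 7 d infarcted pair 2 of the 34 and 8 of the 89 were called in the same direction, and in the 1 m non-infarcted pair 0 and 10. Of all members, 0.526% were called higher and 0.271% lower in the 7 d infarcted pair, and 2.1% and 2.13% in the 1 m pair. The difference between the pairs was not tested, since each is 1 library against 1. Tac1 had a log2 ratio of 0.60 on the infarcted side at 7 d, with 22.3 CPM with levetiracetam against 14.8 CPM without it, and −0.70 on the non-infarcted side. Adora2a had 0.76 on the infarcted side, with 15.9 CPM against 9.40 CPM, and −0.61 on the non-infarcted side.

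At 1 m on the non-infarcted side Gata2 had a log2 ratio of −0.82, with 4.76 CPM with levetiracetam against 8.42 CPM without it, where the 7 d value was 1.04. Crtc2 had −0.66 at 1 m, with 19.3 CPM against 30.6 CPM, and 0.69 at 7 d, and Rtf1 −0.64 at 1 m, with 59.6 CPM against 93.0 CPM, and 0.63 at 7 d. Lower at 7 d and called higher at 1 m were H3c2 at 1.32, H2bc15 at 0.69, with Gm44454 on the same tags, and Tnfrsf12a at 0.63. Ttr had 3.31 at 1 m, with 195.3 CPM against 19.8 CPM, and −0.64 at 7 d. The naive library, at 349.7 CPM of Ttr, is the other high one. How much choroid plexus each sample carried was not measured, and its part in these values was not tested.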

How the results depend on the processing

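The numbers of genes called depend on the fold and on the minimum level. There were 179 higher and 336 lower at a mean of at least 1 CPM, 278 and 503 with no minimum, and 12 and 18 at a mean of at least 20 CPM. With 1 added to each CPM 18 were higher and 48 lower, and at 2-fold 1 and 11. The other settings moved the counts by less than 1.5 times: 34 and 82 after centring on the median member, 41 and 79 with TMM factors, 45 and 69 with median-of-ratios factors, 33 and 85 with shared tags counted once. Without the neutrophil, erythroid and matrix genes, a setting chosen after seeing the data, 81 were lower. The log2 ratios of all 186 named genes stayed within their counting intervals under centring and TMM factors. With 1 added to each CPM, Ngp had a log2 ratio of −3.15 and the other 185 stayed within their intervals. At a mean of at least 1 CPM several list medians moved. That of the cell cycle list was 0.17 in place of −0.26, and that of antigen presentation −0.37 in place of −0.02. Macrophage and monocyte genes had −0.31 in place of −0.69, and choroid plexus genes −0.30 in place of −0.64. Reactive astrocyte genes had −0.42 in place of −0.22, and the hippocampus list −0.19 in place of 0.03. At 5 CPM the cell cycle, macrophage and choroid plexus lists have 1 member each, and the lower limit adds members to them. What else enters these shifts was not tested.

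Leaving out a replicate was not possible with 1 library a group. No paired analysis was possible because each group has 1 library. Intervals cover counting error and not differences between mice, dissections or library preparations, so no ratio can be assigned to levetiracetam rather than to the pair of libraries. The time of day, the number of mice, the duration of treatment and the share of blood in each cortex are not known.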

Other observations

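Genes outside the lists were looked at after their values were seen, and are given as values. Canonical histone genes, whose transcripts lack a poly(A) tail and are counted by random-primed cap-trapping, had a median log2 ratio of −0.02 over 43 members, with 23 below 0 and 20 above. Of these 43, 4 were called lower and none higher, beside 0.71% and 0.271% of all members. H3c2 had 3.67 CPM in the levetiracetam library against 6.45 CPM in the untreated one, and H1f5 4.94 against 8.34 CPM. H2bc15 had 7.28 against 12.1 CPM and H2bc12 5.90 against 9.45 CPM. The median of the same genes was −0.22 in the 7 d infarcted pair and 0.26 in the 1 m non-infarcted pair.

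Other called genes outside the lists include Gadd45a, Tnfrsf12a, Dusp4, Pfkfb3, Tnfaip3 and Csrnp1, which form no set. Gadd45a, a DNA damage response gene induced together with Cdkn1a by p53, had 10.4 CPM with levetiracetam against 16.9 CPM without it. Tnfrsf12a, the receptor of TWEAK, had 5.53 against 9.01 CPM, and Dusp4, a MAP kinase phosphatase, 7.496 against 11.7 CPM. Pfkfb3, an activator of glycolysis, had 15.9 against 24.2 CPM. In the other direction Tnfaip3, the A20 inhibitor of NF-kB signalling, had 8.08 against 4.95 CPM, and Csrnp1 9.99 against 6.28 CPM. In the 7 d infarcted pair the log2 ratios were −0.39 for Gadd45a and for Tnfrsf12a, −0.54 for Dusp4, −0.17 for Pfkfb3, −0.05 for Tnfaip3 and 0.08 for Csrnp1, and none of these was called there. In the 1 m non-infarcted pair Tnfrsf12a was called higher, with 8.90 CPM with levetiracetam against 5.74 CPM without it, and Gadd45a had a log2 ratio of 0.34, Dusp4 −0.13, Pfkfb3 −0.47, Tnfaip3 −0.16 and Csrnp1 0.07.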
